A study of Mus musculus with 5 samples.

Results

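Sonic hedgehog pathway genes were examined in whole mouse cerebella at postnatal day 14. The set held 9 genes of the 55421 in the raw count table: the ligand Shh, the receptor Ptch1, the signal transducer Smo, the co-receptors Boc, Cdon and Gas1, and the transcription factors Gli1, Gli2 and Gli3. They were listed by their role in the pathway and found by gene symbol, and all 9 had enough reads to be among the 20388 genes tested. The 3 Yy1 cKO libraries came from mice of the genotype Pcp2 Cre/+; Yy1 fx/fx, with 2 floxed copies of Yy1, and the 2 control libraries from littermates of the genotype Pcp2 Cre/+; Yy1 fx/+, with 1 floxed copy. Both groups thus carried the Pcp2-driven Cre, which acts in Purkinje cells, and the controls had 1 floxed allele themselves. Per the study's design text the mice were of mixed sex; no label ties a library to a litter, so p-values measure the spread between these samples, which may in part be technical.

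In the cerebellum Purkinje cells secrete Shh, which makes granule cell precursors in the external layer divide. Ptch1 holds Smo inactive until Shh binds it, and Boc, Cdon and Gas1 help to present the ligand. Active Smo, at the primary cilium, releases Gli2 and Gli3 from Sufu, and Gli1, Ptch1 and Hhip are transcribed in turn as targets of the pathway. Bergmann glia, which lie beside the Purkinje cells, are also known to respond.

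Total counts ranged from 17424860 to 20305705 per library. Levels are given as CPM, the count as a share of the library total, scaled between libraries by the trimmed mean of M-values (TMM). Markers of the cerebellar cortex were abundant in both groups, with Gabra6 of granule neurons at 462 ± 39.9 CPM (SD, n = 2) in control libraries and Calb1 of Purkinje cells at 670.4 ± 84.4 CPM. Yy1, the targeted gene, stood at 74.6 and 73.7 CPM in control cerebella and at 73.4, 81.7 and 75.8 CPM in those of Yy1 cKO (log2 fold change 0.05 ± 0.065, SE, adjusted p = 0.61). Whole tissue holds many cells without Cre, and counts per gene do not separate the floxed part, so this value checks the labels little. On principal components of log2 CPM the first, with 62.9% of the variance, split controls from Yy1 cKO, and the second (17.5%) set Yy1 cKO 3 apart.

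Of the 9 genes, Ptch1, Boc and Cdon were higher in Yy1 cKO, by 1.24-fold to 1.39-fold, and 0 were lower (quasi-likelihood test of edgeR, p adjusted by Benjamini-Hochberg under 0.05). Over all genes tested, 10.7% were called higher and 12.6% lower. Gas1 lay higher in every Yy1 cKO library and Gli2 and Smo lower, without passing the threshold. Shh, Gli1 and Gli3 overlapped between the groups. With 2 against 3 libraries, groups that do not overlap reach an exact two-sided permutation p of 0.2 at best. The share of all genes tested whose groups are apart is not given here. The median log2 fold change was 0.25 over the 9 genes and 0.00 over all genes tested. In bulk tissue, more cells of a type and more RNA per cell cannot be told apart. The calls rested on the small control group: without control 1 the call of Ptch1 alone was made, and without control 2 those of Boc and Cdon.

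**Figure D1:**
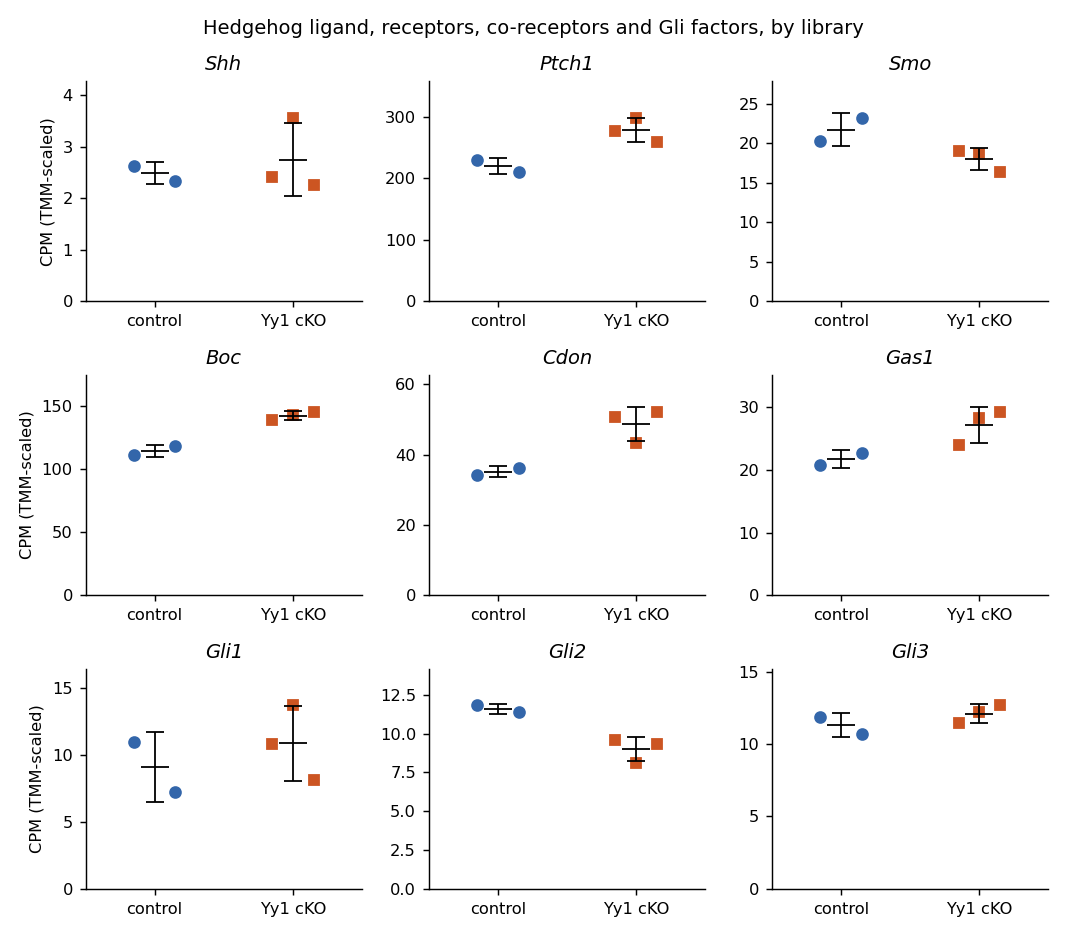
TMM-scaled CPM of each of the 9 genes (y axis, from 0, its own scale for each gene) in the 2 control libraries (circles) and 3 Yy1 cKO libraries (squares), with the mean and SD as bars. Ptch1, Boc, Cdon and Gas1 are higher in every Yy1 cKO library than in either control. Smo and Gli2 are lower in every one, and Shh, Gli1 and Gli3 overlap. The share of all genes tested that are apart in this way is not given here.

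The ligand had the fewest reads of the 9 genes and did not differ beyond the spread of the libraries. Shh (ENSMUSG00000002633.4, chromosome 5, 28456815 to 28467256, GRCm38) was read 49 and 42 times in control cerebella and 48, 65 and 42 times in those of Yy1 cKO. This gave 2.63 and 2.34 CPM against 2.42, 3.56 and 2.255 CPM. The groups overlapped, with Yy1 cKO 2 above all other libraries. The log2 fold change was 0.14 (95% interval -0.45 to 0.72, adjusted p = 0.76); with 5 libraries a change within this interval could not be told from no change. Exons of Shh share 15.7% of their bases with 9530036O11Rik on the opposite strand, which had 2 to 13 counts per library, and 12.7% with the opposite-strand Gm26894, which was not analysed here. The strand setting of the counting is not given in the sources used here, so reads of these partners may be counted with Shh or not.

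Ptch1, the membrane receptor that Shh binds and itself a target of the pathway, rose. Ptch1 (ENSMUSG00000021466.12, chromosome 13, 63508328 to 63573598) stood at 229 and 210.1 CPM in control cerebella and at 277, 298 and 259 CPM in those of Yy1 cKO. Every Yy1 cKO library lay above both controls, and Yy1 cKO 2 was the highest. The mean went from 219 ± 13.1 (SD, n = 2) to 278 ± 19.6 CPM (SD, n = 3), which gave 0.34 ± 0.073 on the log2 scale (SE, adjusted p = 0.0082). The estimate was 0.28 with adjusted p = 0.12 without control 2, and 0.40 with adjusted p = 0.040 without control 1. Smo, the transducer that Ptch1 restrains (ENSMUSG00000001761.7, chromosome 6, 29735503 to 29761365), stood at 20.2 and 23.2 CPM in control cerebella and at 19.0, 18.6 and 16.4 CPM in those of Yy1 cKO. All 3 Yy1 cKO libraries lay below both controls, but the nearest values, 20.2 and 19.0 CPM, were closer together than the controls themselves. Its log2 fold change was -0.27 (95% interval -0.52 to -0.02, adjusted p = 0.11). Scaled by library size alone, Smo passed the threshold (-0.35, adjusted p = 0.043); that scaling moved the median of all genes to -0.08.

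The co-receptors Boc, Cdon and Gas1, which bind Shh at the cell surface, all lay higher in Yy1 cKO, and 2 of the 3 passed the test. Boc (ENSMUSG00000022687.12, chromosome 16, 44485049 to 44558897), an immunoglobulin and fibronectin repeat protein, stood at 111 and 118 CPM in control cerebella and at 139, 143 and 146 CPM in those of Yy1 cKO. The groups were well apart relative to their spread, and Boc had the smallest p of the 9 genes (log2 fold change 0.31 ± 0.057, SE, adjusted p = 0.0036). Cdon, the closest relative of Boc (ENSMUSG00000038119.15, chromosome 9, 35421128 to 35507652), stood at 34.1 and 36.25 CPM in control cerebella and at 50.7, 43.2 and 52.25 CPM in those of Yy1 cKO. Its log2 fold change of 0.47 ± 0.092 (SE, adjusted p = 0.0054) was the highest point estimate of the 9, with Yy1 cKO 2 nearest to the controls. Without control 1 neither was called, with a log2 fold change of 0.27 for Boc (adjusted p = 0.075) and 0.43 for Cdon (adjusted p = 0.074). Gas1, a GPI-anchored protein of another family (ENSMUSG00000052957.8, chromosome 13, 60174405 to 60177365), stood at 20.7 and 22.7 CPM in control cerebella and at 23.9, 28.3 and 29.3 CPM in those of Yy1 cKO. Its log2 fold change was 0.32 (95% interval 0.07 to 0.57, adjusted p = 0.064), with Yy1 cKO 1 close to control 2. Without Yy1 cKO 1 it passed the threshold (0.41, adjusted p = 0.033), and 19.9% of its exon bases overlap the opposite-strand Gm48488, which had 21 to 41 counts per library.

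The Gli factors, the transcription factors at the end of the pathway, gave 0 calls. Gli1 (ENSMUSG00000025407.7, chromosome 10, 127329882 to 127341974), an activator whose transcription is a common readout of the pathway, stood at 10.96 and 7.25 CPM in control cerebella and at 10.8, 13.7 and 8.11 CPM in those of Yy1 cKO. The controls lay further from each other than the group means did, and the estimated coefficient of variation between libraries was 19.5%, against 7.40% for Ptch1 and 6.18% for Boc. The log2 fold change was 0.25 (95% interval -0.37 to 0.87, adjusted p = 0.55), and it was -0.01 without control 2 and 0.58 without control 1. Gli2, the main activator in granule cell precursors (ENSMUSG00000048402.14, chromosome 1, 118834132 to 119053619), stood at 11.8 and 11.4 CPM in control cerebella and at 9.56, 8.10 and 9.34 CPM in those of Yy1 cKO. The groups did not overlap, and the log2 fold change was -0.36 (95% interval -0.64 to -0.09, adjusted p = 0.059). Gli2 passed the threshold without Yy1 cKO 3 (-0.39, adjusted p = 0.042) and under scaling to total counts only (-0.44, adjusted p = 0.030). Gli3, which acts largely as a repressor (ENSMUSG00000021318.15, chromosome 13, 15463235 to 15730026), stood at 11.9 and 10.7 CPM in control cerebella and at 11.4, 12.2 and 12.7 CPM in those of Yy1 cKO. The groups overlapped, with a log2 fold change of 0.10 (95% interval -0.16 to 0.35, adjusted p = 0.59).

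**Figure D2:**
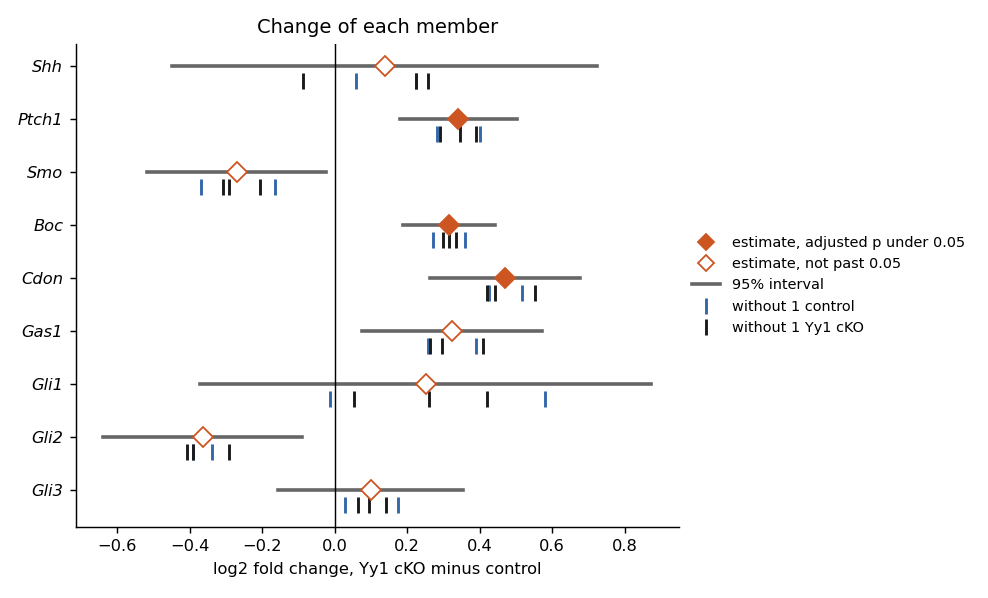
Log2 fold change of each of the 9 genes (x axis, Yy1 cKO minus control), with the estimate as a diamond (filled where adjusted p is under 0.05), its 95% interval as a bar, and the estimates without each library in turn as ticks below. The ticks of Shh and Gli1 lie on both sides of 0, and those of the other 7 genes on the side of their estimate.

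Ratios of counts within a library do not depend on the scaling between libraries. On the log2 scale, with 0.5 added to each count, the ratio of Ptch1 to Smo was 3.50 and 3.18 in control libraries and 3.87, 3.999 and 3.98 in Yy1 cKO. The ratio was thus higher in each Yy1 cKO library, by 0.61 on average. The ratio of Gli3 to Gli2, a repressor against an activator, was 0.01 and -0.09 in control libraries and 0.26, 0.59 and 0.44 in Yy1 cKO, a difference of 0.47. These were the pairs, of 8 compared, whose groups did not overlap. Both had an exact two-sided permutation p = 0.2, the smallest that 2 against 3 libraries allow, and adjusted p = 0.8 over the 8 pairs, so neither could pass a threshold of 0.05. The ratio of Boc to Cdon was 1.71 and 1.70 in control libraries and 1.45, 1.72 and 1.48 in Yy1 cKO, and that of Gli1 to Ptch1 was -4.38 and -4.85 against -4.68, -4.44 and -4.99. In both of these pairs the groups overlapped.

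Per kilobase of exon, Boc was the most abundant of the 9 genes and Shh the least. The mean RPKM (TMM-scaled CPM divided by the kilobases of merged exons) in the controls was 25.7 ± 1.08 (SD, n = 2) for Boc and 15.5 ± 0.92 for Ptch1. It was 7.33 ± 0.47 for Gas1, 4.56 ± 0.20 for Cdon and 3.86 ± 0.38 for Smo. Gli1 followed with 1.82 ± 0.53, Gli2 with 1.69 ± 0.046, Gli3 with 1.18 ± 0.086 and Shh with 0.87 ± 0.072. Among 20360 tested genes with a length, 91.9% lay below Boc and 18.8% below Shh. In the controls Gli1 and Gli2 were the neighbours in this order whose libraries overlapped. The order in Yy1 cKO was the same, from 32.0 ± 0.77 (SD, n = 3) for Boc and 19.6 ± 1.39 for Ptch1 down to 0.96 ± 0.25 for Shh, and there Gli2 overlapped Gli3 and Gli3 overlapped Shh. With the longest transcript as the length, Smo (5.74 RPKM) stood above Cdon (4.69 RPKM).

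**Figure D3:**
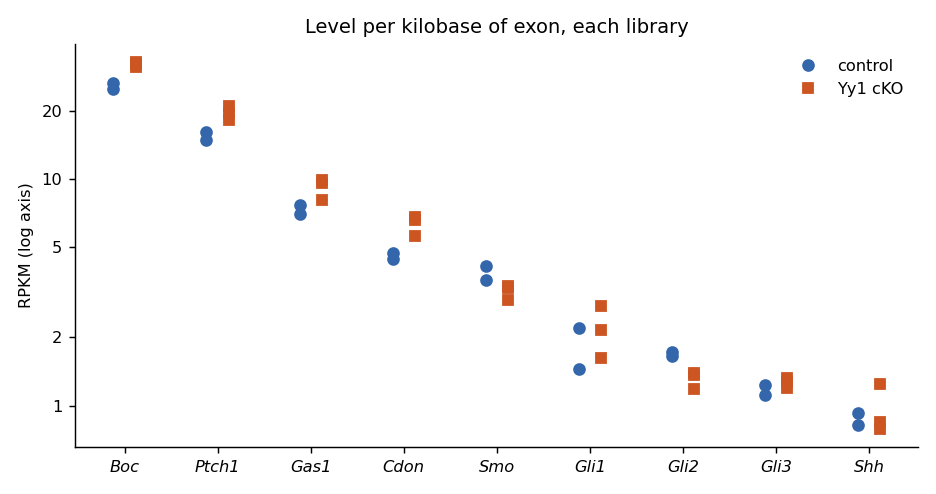
RPKM (y axis, log scale) of the 9 genes in each control (circles) and Yy1 cKO library (squares), ordered by the control mean. Boc and Ptch1 stand above the other genes in every library, and Shh lies near 1.

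Promoter windows from RefSeq (GRCm38.p6, 250 bases before to 50 after the annotated start) were at hand for 6 of the 9 genes, Ptch1, Smo, Cdon, Gas1, Gli2 and Gli3. Those of Ptch1 and Cdon, which were both called higher, are shown for their contrast in base composition, with every CG dinucleotide in capitals. They are the 250 bases before the start, 5′ to 3′ on the gene's strand: Ptch1 at chr13:63565736-63565985, minus strand, and Cdon at chr9:35451826-35452075, plus strand.
Ptch1: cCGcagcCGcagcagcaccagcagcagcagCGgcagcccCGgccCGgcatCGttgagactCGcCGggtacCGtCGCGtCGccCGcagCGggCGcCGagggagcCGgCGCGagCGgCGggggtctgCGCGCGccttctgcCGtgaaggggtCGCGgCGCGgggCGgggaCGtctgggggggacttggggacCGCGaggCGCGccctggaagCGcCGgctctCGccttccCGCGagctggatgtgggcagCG
Cdon: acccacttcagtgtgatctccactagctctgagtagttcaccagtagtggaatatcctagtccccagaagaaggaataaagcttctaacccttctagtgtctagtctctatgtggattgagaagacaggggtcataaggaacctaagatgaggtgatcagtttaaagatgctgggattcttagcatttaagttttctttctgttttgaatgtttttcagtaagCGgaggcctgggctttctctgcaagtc
The Ptch1 stretch holds 41 CG dinucleotides and the Cdon stretch 1. Over the whole window of 300 bases, Ptch1 had a GC content of 76.3%, above 97.1% of the 32817 promoter windows in the table, and Cdon 44.7%, above 21.1%. The other 4 windows held 62.3% to 71.0% GC, against a median of 52.7% over the table. Both shown starts match a GENCODE transcript start, but GENCODE places the outermost start 7863 bases upstream of that of Ptch1 and 30948 bases upstream of that of Cdon, so other promoters of these genes are not covered. The Gli binding motif GACCACCCA and the YY1 motif AANATGGC were sought on both strands. Neither was found in the 6 windows, also with 1 mismatch allowed in the Gli motif. Of all windows, 0.25% held the exact Gli motif, 6.75% held it with up to 1 mismatch and 6.04% held the YY1 motif.

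Of 11 genes for other hedgehog ligands and ligand release, 9 were tested, 1 was higher and 1 lower, with a median log2 fold change of -0.10. These shares are near those of all genes tested, 10.7% higher and 12.6% lower. Scube1, a relative of the Shh-releasing protein Scube2, fell from 9.79 ± 0.67 (SD, n = 2) to 3.47 ± 0.43 CPM (SD, n = 3; log2 fold change -1.50 ± 0.16, SE, adjusted p = 1.8e-04), and it was called without each library in turn. Gpc6, a glypican, went from 21.8 ± 0.20 to 31.4 ± 5.0 CPM (adjusted p = 0.018), and its call was lost without control 1, control 2 or Yy1 cKO 2 (adjusted p = 0.12, 0.13 and 0.058). Disp1, which exports the ligand, gave a log2 estimate of -0.41 (adjusted p = 0.20), and Scube2 of 0.56 at under 1 CPM (adjusted p = 0.31). Of 5 other receptors and ligand-binding proteins, 0 were called. Hhip, a decoy receptor and target of the pathway, stood at 21.4 ± 4.5 CPM in control cerebella and 21.6 ± 4.2 CPM in those of Yy1 cKO (log2 fold change 0.01 ± 0.197, SE, adjusted p = 0.97).

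Of 29 cytoplasmic regulators of Smo and Gli tested, 7 were higher and 5 lower, with a median of 0.07, against 10.7% higher and 12.6% lower among all genes. Sufu, which holds Gli proteins in the cytoplasm and is a negative regulator of the pathway, fell from 64.3 ± 3.6 (SD, n = 2) to 38.7 ± 0.67 CPM (SD, n = 3). Its values were 66.8 and 61.7 CPM in the controls against 39.1, 37.9 and 39.15 CPM, so that the groups were far apart (log2 fold change -0.73 ± 0.066, SE, adjusted p = 6.5e-05). Dyrk2, a kinase, fell from 51.2 ± 2.0 to 23.7 ± 1.5 CPM (-1.11 ± 0.082, adjusted p = 2.1e-05). The ciliary kinesin Kif7 (-0.72, adjusted p = 0.039) and the kinase Stk36 (-0.45, adjusted p = 0.043) were also called lower, and both calls were lost when any library other than Yy1 cKO 3 was left out. Of those higher, Fbxw11, a subunit of the ubiquitin ligase that acts on Gli proteins, rose from 151 ± 5.2 to 200 ± 2.0 CPM (0.41 ± 0.053, adjusted p = 5.4e-04). Mgrn1 and Dyrk1a rose by 0.26 and 0.21. Sufu, Dyrk2 and Fbxw11 were called without each library in turn, whereas the number of genes called higher on this list fell from 7 to 2 without control 1, 1 without control 2 and 3 without Yy1 cKO 1, and the number lower from 5 to 2 without control 1, control 2 or Yy1 cKO 2 and 3 without Yy1 cKO 1. With scaling by library size alone 3 were higher and 6 lower.

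Of 43 primary cilium genes tested, which build the organelle that Smo signals from, 8 were higher and 1 lower, with a median of 0.12, against 10.7% higher and 12.6% lower among all genes. Ttbk2, a kinase that starts cilium assembly, rose from 128 ± 2.8 (SD, n = 2) to 158 ± 0.48 CPM (SD, n = 3; 0.31 ± 0.052, SE, adjusted p = 0.0025). Inpp5e, a ciliary phosphatase, rose by 0.44 ± 0.090 (adjusted p = 0.0073), Bbs2 by 0.43 and Ahi1 by 0.21. Kif3b, a motor subunit of ciliary transport, fell by 0.31 ± 0.065 (adjusted p = 0.0074). Without control 2 the list gave 0 calls in either direction, and without control 1 and Yy1 cKO 1 it gave 3 and 2 higher. With scaling by library size alone 2 were higher and 2 lower.

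Genes listed as hedgehog targets in granule cell precursors were mostly lower. Of 16 tested, 13 fell and 0 rose, with a median of -1.13, where 12.6% of all genes were lower. Ccnd2, a cyclin of the first cell cycle phase, had 75.4 and 65.8 CPM in control cerebella and 10.5, 13.5 and 10.95 CPM in those of Yy1 cKO, with no overlap (-2.60 ± 0.11, SE, adjusted p = 1.4e-06). Mycn, the Myc family factor that Shh induces in precursors, went from 16.4 ± 2.9 (SD, n = 2) to 4.29 ± 0.44 CPM (SD, n = 3; -1.93 ± 0.15, adjusted p = 3.1e-05). Sfrp1, a secreted Wnt inhibitor, fell by 1.95 ± 0.13, and Id3, an inhibitor of basic helix-loop-helix factors, by 1.14 ± 0.13. Hhip and Bcl2 were among the 3 that did not pass. Between 9 and 12 members were called lower without each library in turn, and 11 where at least 1 CPM was required in every library. Atoh1, with counts of 0, 1 and 0 in Yy1 cKO, passed the low-count filter through the control libraries alone. Several of these genes, Atoh1, Ccnd2 and Mycn among them, are also markers of the precursors themselves, so the list is not independent of the number of those cells. Counts from whole tissue also do not show in which cells the listed genes fell. Of the other targets, Ptch1 rose and Gli1 was not called.

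**Figure D4:**
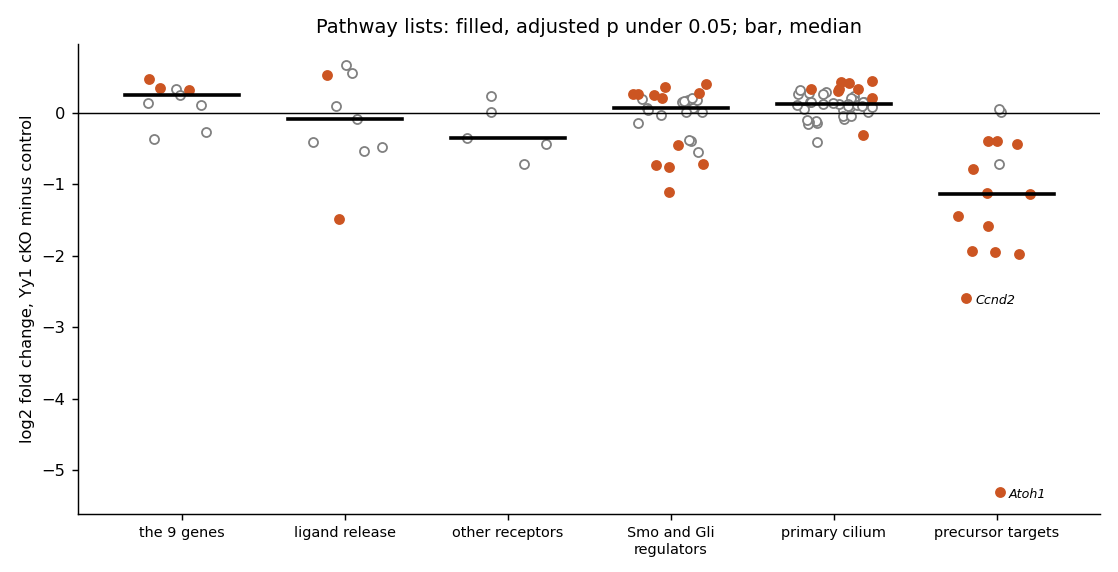
Log2 fold change (y axis, Yy1 cKO minus control) of each tested gene in the 9-gene set and 5 further lists, filled where adjusted p is under 0.05, with the median of each list as a bar. The precursor targets lie mostly below 0, down to Atoh1, whose estimate rests on 1 read in Yy1 cKO, while the other lists have medians between -0.36 and 0.25.

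Markers of several cell types moved with these genes. Of 10 markers of granule cell precursors 8 fell and 0 rose, where 12.6% of all genes were lower and 10.7% higher. Atoh1, which defines these precursors, was read 16 and 19 times in control cerebella and 0, 1 and 0 times in those of Yy1 cKO. Atoh1 thus passed the low-count filter through the control libraries alone. The summed level of the list went from 2090 and 2110 CPM to 1693, 1788 and 1886 CPM. Most of it was Zic1 and Neurod1, the markers on this list that were not called. Among 10 markers of mature granule neurons 8 rose and 0 fell, with a summed level of 4603 to 4619 CPM in control libraries and 5898 to 6524 CPM in Yy1 cKO. Gabra6 rose by 0.43 ± 0.072 (SE, adjusted p = 0.0022). Among 8 of molecular layer interneurons 6 rose and 0 fell, with sums of 916 to 979 CPM against 1250 to 1295 CPM. Among 16 of Bergmann glia and astrocytes 5 rose and 2 fell, with sums of 4509 to 4522 CPM against 5293 to 5707 CPM. Gdf10, which defines Bergmann glia, stood at 203 ± 35.4 (SD, n = 2) and 164 ± 4.2 CPM (SD, n = 3; adjusted p = 0.055). Among 14 of Purkinje cells 3 rose and 0 fell, with sums of 5297 to 5353 CPM against 6299 to 7422 CPM, and Calb1 gave -0.02 on the log2 scale (adjusted p = 0.93). Most of the Purkinje cell sum's rise came from Itpr1, whose mean went from 1536 to 2586 CPM, and Aldoc, from 563 to 1017 CPM; the list's median log2 fold change was 0.09. Aldoc stands on both of these last lists, so its rise is in both sums. The Bergmann glia and astrocyte list had a median log2 fold change of 0.06. Without control 2 the Bergmann glia and astrocyte list had 1 higher, and 1 was lower without control 1, control 2 or Yy1 cKO 2. Without single libraries the precursor list kept a count of 8 lower, the mature granule list had 7 to 10 higher and the interneuron list 5 to 6. The part of these cell types in the changes of Ptch1, Boc and Cdon was not tested.

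Lists of other cells were also measured, where 10.7% of all genes tested were higher and 12.6% lower. Of 6 oligodendrocyte precursor markers 5 fell and 0 rose, with sums of 214 to 235 CPM against 140.4 to 153 CPM. Endothelial and mural markers fell in 4 of 6 and rose in 1, with sums of 282 to 314 against 189 to 219 CPM. Meningeal fibroblast markers fell in 4 of 8 and rose in 0, with sums of 255 to 337 against 143 to 194 CPM. Pdgfra, called lower, stands on both the oligodendrocyte precursor and the meningeal list. Erythroid genes rose in 4 of 5, with sums of 262 to 302 against 594 to 961 CPM. Choroid plexus and ependyma markers rose in 2 of the 4 tested, at sums of 5.91 to 6.13 against 8.204 to 9.02 CPM, with Folr1 near 0. Oligodendrocyte markers, with 1 higher and 1 lower of 7, and microglia markers, with 0 called of 5 tested, had sums that overlapped between the groups. Most of these counts rested on single libraries. The choroid plexus and ependyma list and the erythroid list each had 0 higher without control 1 and without control 2. Without any 1 of the Yy1 cKO libraries the choroid plexus and ependyma list had 1 higher, and the erythroid list had 2 without Yy1 cKO 2 and 1 without Yy1 cKO 3. Without control 2 the lower counts were 2 for oligodendrocyte precursors, 2 for endothelial and mural cells and 1 for meningeal fibroblasts. The oligodendrocyte precursor count was 3 without Yy1 cKO 2, and the endothelial and mural count was 2 without control 1 or Yy1 cKO 1. The part of these cells in the hedgehog results was not tested.

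**Figure D5:**
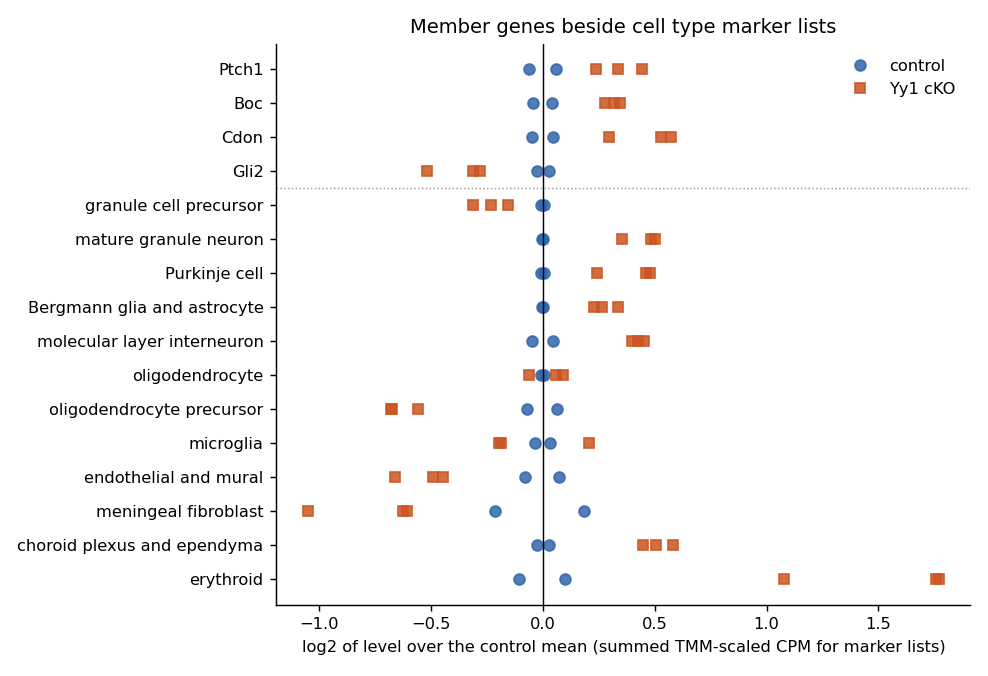
Log2 of the level over the control mean (x axis) in each control (circles) and Yy1 cKO library (squares), for 4 of the hedgehog genes and, below the dotted line, for the summed TMM-scaled CPM of cell type marker lists. Ptch1, Boc and Cdon lie to the right of the controls. So do the lists of mature granule neurons, Purkinje cells, Bergmann glia and astrocytes, interneurons, choroid plexus and ependyma, and erythroid cells. Gli2 lies to the left, as do the lists of granule cell precursors, oligodendrocyte precursors, endothelial and mural cells, and meningeal fibroblasts.

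Genes with patterns most like those of the members were sought among 17819 genes of at least 1 CPM, by the root mean square difference of log2 CPM centred on the control mean over the 5 libraries. Nearest to Ptch1 were Kif5a (0.022), Gga1 (0.024) and Arhgap44 (0.026). Nearest to Boc were Kat7 (0.013), Plekha6 (0.016) and Igip (0.017). The nearest to Gli1, Sh2b2 (0.091), Tmem204 (0.094) and Lrfn5 (0.105), were further off, as were those to Shh, led by Gm44033 (0.061). With 5 libraries that share 1 group difference, such nearness is a description of these libraries.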

How the data were processed

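Whole cerebella were lysed in TRIzol, and strand-specific libraries were made after removal of ribosomal RNA, per the labels. The submitters' processing notes name STAR 2.7.1a, featureCounts, Trimmomatic 0.39, DESeq2 1.26.0, FastQC 0.11.8 and build GRCm38; their settings, also for strand, were not given in the sources used here. The authors deposited raw counts of 55421 genes and a normalized signal, found to be each count over a constant of its library (0.969 to 1.07). Symbols, positions and exon lengths came from GENCODE M21 (GRCm38); 54673 identifiers matched with their version, 567 without it and 181 had no match.

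Counts were tested with edgeR 4.0.16 in R 4.3.3 (quasi-likelihood, TMM, filterByExpr, robust dispersion, no covariate), with Benjamini-Hochberg adjustment over 20388 genes at 0.05. The standard error is the log2 fold change over the square root of F, and 95% intervals use the total degrees of freedom. The test was checked on simulated counts. Groups came from sample titles. Within groups chi-square per gene was 3.51 to 16.7, so all 5 were kept as separate samples. The members, lists and tests were chosen with earlier results of these data known. Named genes were the 9 members, Yy1, up to 4 called genes per pathway list and direction by p, Hhip, Sufu, Disp1, Scube2 and defining markers; others are described where a count needs them, and some named by this rule are not reported here. Alternatives were other scalings, low-count filters and thresholds, DESeq2 1.42.0, limma-voom and limma-trend (limma 3.58.1), edgeR without robust dispersion, log2 CPM of Xist as a covariate, a replicate block and leaving out each library. The planned comparison of protein sequences was not run. All 9 members matched 1 gene each. Of transcript windows of 50 bases, 23.6% of those of Shh, 17.0% of Gas1 and 4.51% of Gli1 occur in an overlapping opposite-strand gene, and at most 1.56% of those of each other member occur in another gene's transcripts.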

Additional observations from a re-analysis of the deposited data

How the results depend on the processing

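Ptch1, Boc and Cdon stayed higher under all 19 alternatives and past the threshold in 18 each; the exceptions were Ptch1 without control 2 (adjusted p = 0.12) and Boc and Cdon without control 1 (adjusted p = 0.075 and 0.074). Where 1 control was left out, the other was assumed to vary like the Yy1 cKO libraries. Deviations of same-numbered libraries from their group mean correlated at 0.04 and 0.022. Those of the 2 controls mirror each other (correlation -1), so these values cannot show whether the replicate numbers pair libraries. No label says which libraries shared a litter. With a replicate block 5 members were higher and 1 lower, with Gas1 at 0.26, Gli1 at 0.43 and Gli2 at -0.39 past the threshold. In that fit no control shared the number of Yy1 cKO 3, so this library added nothing to the contrast. Ptch1 was at 0.39 both with the block and without Yy1 cKO 3. The share of all genes called with the block is not given here. With scaling by library size alone 2 members were lower, Smo (-0.35) and Gli2 (-0.44), and 6 pathway list genes were higher, against 16. Without a low-count filter Gas1 passed (0.33). At an adjusted p of 0.10, 1 member was lower, Gas1 (0.32) and Gli2 (-0.36) passed, and 26 pathway list genes were higher; at 0.01, 5 were. Leaving out each library gave 1 to 4 members higher and 0 to 1 lower, and 1 to 21 pathway list genes higher and 13 to 21 lower, against 16 and 20. The log2 fold changes then ranged over 0.28 to 0.40 for Ptch1, 0.27 to 0.36 for Boc, 0.42 to 0.55 for Cdon, 0.26 to 0.41 for Gas1 and -0.41 to -0.29 for Gli2. Values that changed sign were all short of the threshold: Shh (-0.089 to 0.26) and Gli1 (-0.014 to 0.58) without single libraries, Yy1 with library size alone (-0.025), Hhip with library size alone (-0.067), with Xist as a covariate (-0.009) and without single libraries (-0.187 to 0.247), and Calb1 with upper quartile scaling (0.003) and without single libraries (-0.14 to 0.12). Without single libraries 3 differences between ratios also did, those of Gli1 to Ptch1 (-0.326 to 0.147), Gli1 to Gli3 (-0.072 to 0.378) and Boc to Gas1 (-0.076 to 0.037). Smo took place 4 and Cdon place 5 with the longest transcript as length. The causes of these shifts were not tested.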

Other observations

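The ligand and 3 targets of the pathway ordered the libraries of each group alike, a pattern noticed after the values were seen. Shh, Ptch1, Gli1 and Hhip were each higher in control 1 than in control 2, and in Yy1 cKO each was highest in library 2 and lowest in library 3. Hhip stood at 24.6 and 18.2 CPM in control cerebella and at 23.5, 24.5 and 16.8 CPM in those of Yy1 cKO. Of all 20388 genes tested, 11.6% had this order. The co-receptors Boc, Cdon and Gas1 were higher in control 2 than in control 1 and highest in Yy1 cKO 3. These orders rest on 5 libraries that the genes share, that of Shh on only 42 to 65 counts per library, and what sets them was not tested.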
